A study of Mus musculus with 6 samples.

Results

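Cdkn1c, Igf2 and Nnat are imprinted genes whose start sites lay in or beside regions of changed DNA methylation in HoxA9-immortalised mouse bone marrow cells with mutant IDH1. The 3 genes were taken because they were named as the nearest gene in tables of changed windows that the study's authors deposited, so the values that follow chose them and carry no test. They account for 5 of the 2135 windows listed in at least 1 of 3 tables, and for 7 of the 2846 entries over the 3 tables. Of the 5 windows, 2 belong to Cdkn1c, 2 to Igf2 and 1 to Nnat.

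Imprinted genes are read from the copy of 1 parent only, and the silent and active copies are told apart by DNA methylation laid down in the germ line or added soon after at nearby promoters. Cdkn1c encodes the cyclin-dependent kinase inhibitor p57, which is transcribed from the maternal copy, restrains the cell cycle and helps to keep blood stem cells quiescent. Igf2 encodes a growth factor transcribed from the paternal copy, and Nnat encodes neuronatin, a small membrane protein of the endoplasmic reticulum that is also transcribed from the paternal copy. Cdkn1c and Igf2 lie in a large imprinted domain at the distal end of mouse chromosome 7, in separate parts of it that answer to the Kcnq1ot1 and the H19 control regions. Nnat lies on chromosome 2, inside an intron of Blcap.

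The study measured cytosine methylation by reduced representation bisulfite sequencing (RRBS), which reads CpG sites in short fragments cut by MspI. All 3 groups started from C57BL6 bone marrow cells made immortal by HoxA9, a transcription factor of the homeobox family, and all were carried in irradiated recipient mice, from whose marrow GFP-positive cells were sorted after 4 weeks. The IDH1wt group (2 libraries) carried wild-type IDH1 on the pSF91 vector with a GFP marker, and the IDH1mut group (2 libraries) carried IDH1 with the R132C change on the same vector, each in addition to the cells' own Idh1. The R-2HG group (2 libraries) carried the empty vector, and its mice received R-2HG, the metabolite made by the mutant enzyme, at 1 mg per day for 4 weeks. Empty-vector cells without R-2HG were not analysed here, so the vector and the treatment cannot be told apart in either comparison of the R-2HG group. The labels give neither the age of the mice nor the animal behind each library.

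Each table entry is a window of 500 bp with the authors' difference in percent methylation between 2 groups, in percentage points, and their p-value and q-value. A window is listed only when its difference is at least 25 points. No level per group or per library stands in the tables. A difference of -30 points could thus be a fall from any starting level of 30% or more. The spread between libraries and the read depth are unknown. Which test gave the q-values is not stated either, so they may cover the counting of reads alone. The deposited tables do not state the order of subtraction. The differences of the 3 group pairs have to add up. When the table of IDH1wt with R-2HG was turned, they did so at the 3 windows listed in all 3 tables, with at most 0 points left over. The other sign orders left up to 65.67 to 139.1 points there. At all 705 windows listed in exactly 2 tables, the turned order also put the unlisted difference of the remaining pair under 25 points. The other orders did so at 72 to 385 of them. The values are given here with IDH1wt subtracted from either other group, and with IDH1mut subtracted from R-2HG. The data leave a reversal of all 3 at once possible, in which every loss named below is a gain and the reverse. The opposite directions of the chromosome 7 genes and Nnat, and the shared direction of both groups at Cdkn1c, are the same in either reading. The shared direction at Cdkn1c is limited by the listing threshold, as given below.

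The sequences before the RefSeq start sites of Igf2 and Nnat are shown for their CpG content and not as the sequence of the changed windows. Of the 3 genes, 2 had an entry in the RefSeq promoter table (build GRCm38.p6). Each sequence is the 250 bases before a start, written 5′ to 3′ on the gene's strand, with CpG dinucleotides, the sites RRBS reads, in capitals. Igf2 has 4 starts in the table, all on the minus strand, at chr7:142666817-142667066, chr7:142661272-142661521, chr7:142658805-142659054 and chr7:142657497-142657746. Nnat has 1 on the plus strand, at chr2:157559828-157560077. The windows of the study are in build mm9, and the table does not tie a start to a transcript, so which of the 4 Igf2 starts the changed windows cover is not given here.
Igf2 start 1: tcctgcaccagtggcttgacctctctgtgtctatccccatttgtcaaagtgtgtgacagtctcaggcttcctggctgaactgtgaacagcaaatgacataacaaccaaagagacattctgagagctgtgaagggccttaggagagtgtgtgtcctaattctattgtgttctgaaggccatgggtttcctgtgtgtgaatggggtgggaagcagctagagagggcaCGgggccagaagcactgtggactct
Igf2 start 2: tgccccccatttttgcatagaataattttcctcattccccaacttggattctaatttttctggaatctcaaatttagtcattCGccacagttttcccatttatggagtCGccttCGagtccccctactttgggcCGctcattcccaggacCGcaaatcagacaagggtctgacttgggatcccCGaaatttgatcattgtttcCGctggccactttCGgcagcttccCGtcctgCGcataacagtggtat
Igf2 start 3: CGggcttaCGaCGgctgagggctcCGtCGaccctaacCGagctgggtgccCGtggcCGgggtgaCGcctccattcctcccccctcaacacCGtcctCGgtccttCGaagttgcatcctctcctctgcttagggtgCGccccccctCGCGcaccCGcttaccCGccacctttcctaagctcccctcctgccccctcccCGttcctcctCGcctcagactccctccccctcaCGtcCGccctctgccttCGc
Igf2 start 4: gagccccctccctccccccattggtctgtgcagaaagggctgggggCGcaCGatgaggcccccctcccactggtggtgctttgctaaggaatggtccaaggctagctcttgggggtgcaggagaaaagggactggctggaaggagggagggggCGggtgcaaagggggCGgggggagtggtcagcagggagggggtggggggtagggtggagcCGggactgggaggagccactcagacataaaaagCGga
Nnat start 1: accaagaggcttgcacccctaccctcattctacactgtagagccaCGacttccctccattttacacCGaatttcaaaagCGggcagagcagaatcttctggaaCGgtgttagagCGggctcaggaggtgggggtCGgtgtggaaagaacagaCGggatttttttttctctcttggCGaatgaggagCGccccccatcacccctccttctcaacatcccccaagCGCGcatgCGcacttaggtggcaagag

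CpG sites were unevenly spread over the Igf2 starts. Start 1 held 1 CpG in 250 bases, start 2 held 10, start 3 held 22 and start 4 held 6, against 12 before the Nnat start and a median of 6 over 32851 RefSeq promoter sequences of the same length. Start 3 of Igf2 had more CpGs than 85.2% of all these sequences, and start 1 had more than 7.87%. The G+C content was 50.8% at start 1, 47.6% at start 2, 68.8% at start 3 and 66.0% at start 4 of Igf2, and 54.8% at Nnat, with a median of 52.4% over all. The MspI site CCGG, which reads the same on both strands and holds a CpG itself, was found once each before starts 3 and 4 of Igf2 and was not among the letters of the other 3 windows. It was present in 47.1% of all the promoter sequences.

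**Figure D1:**
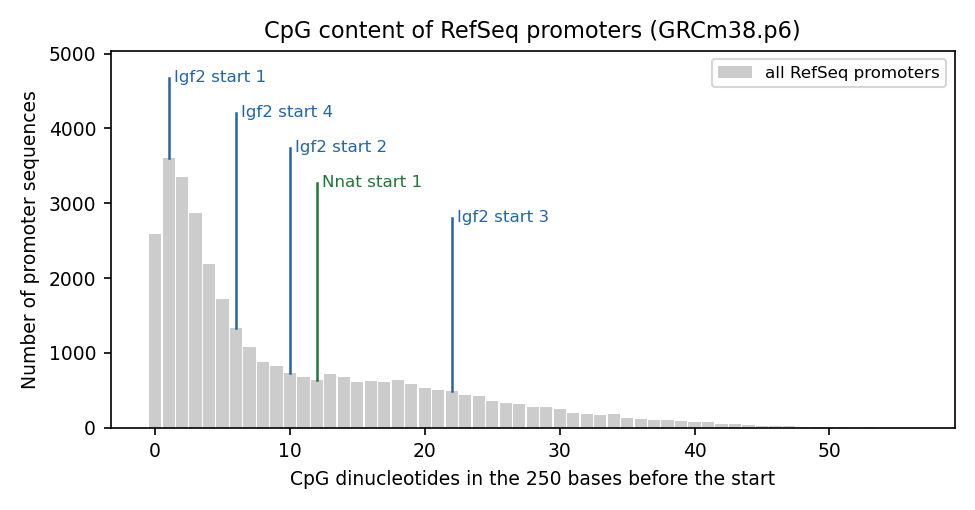
CpG dinucleotides in the 250 bases before each RefSeq start (horizontal axis, count) against the number of promoter sequences with that count (vertical axis, grey bars, 32851 sequences), with vertical lines at the counts of the 4 Igf2 starts and of Nnat. Igf2 start 1 sits at 1 CpG and Igf2 start 3 at 22, with Nnat at 12.

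Cdkn1c lost methylation over its start site in both groups compared with IDH1wt. In the authors' deposited table for IDH1mut, the window over the start site (mm9, chromosome 7, 150646751 to 150647250) had a difference of -36.5 points. The next window, 150647001 to 150647500, whose near edge lies 47 bp upstream of the start, had -37.0 points in the authors' deposited table. For R-2HG, the same 2 windows were listed in the authors' deposited table at -33.8 and -36.7 points. All 4 values lie within 4 points of each other, and the q was 0 at each as deposited. Together the windows span 546 bp upstream to 203 bp downstream of the start, on the minus strand, as worked out from the authors' distances. They overlap by 250 bp and so share CpGs, which makes them 1 region and not 2 independent results.

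Both Cdkn1c comparisons use the same IDH1wt libraries, so their closeness is not independent support for either. Subtracting them gives R-2HG minus IDH1mut, which was 2.66 points at the first window and 0.316 points at the second. Neither window is in the authors' deposited table of that direct comparison, which holds no difference under 25 points. Opposite directions at a window listed against IDH1wt for both groups would put the direct difference past this threshold. If the windows were left out of the direct comparison for size alone, the shared direction at Cdkn1c is fixed by the threshold. It is therefore not read as a result about Cdkn1c. The error of these remaining differences cannot be given without values per library, so they do not show that the mutant enzyme and the metabolite act alike at Cdkn1c.

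Igf2 lost methylation at its start site in IDH1mut. The window over the start (mm9, chromosome 7, 149843001 to 149843500) had a difference of -32.9 points, and the window 149842751 to 149843250, whose near edge lies 137 bp downstream of the start, had -33.7 points in the authors' deposited table. NM_001122737, on the minus strand, was named there as the nearest transcript. The 2 windows, which again overlap, span 113 bp upstream to 636 bp downstream of that start, so most of this region lies inside the transcribed part, whereas most of the Cdkn1c region lies before the start. The start sites of Igf2 and Cdkn1c are 804 kb apart.

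Nnat went the other way in IDH1mut. Its 1 listed window (mm9, chromosome 2, 157386001 to 157386500) had a difference of 29.5 points in the authors' deposited table, with a q of 0 as deposited. The window lies on the plus strand from 157 to 656 bp downstream of the start site, past the Nnat bases printed above. The windows that start 250 bp to either side were not listed.

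**Figure D2:**
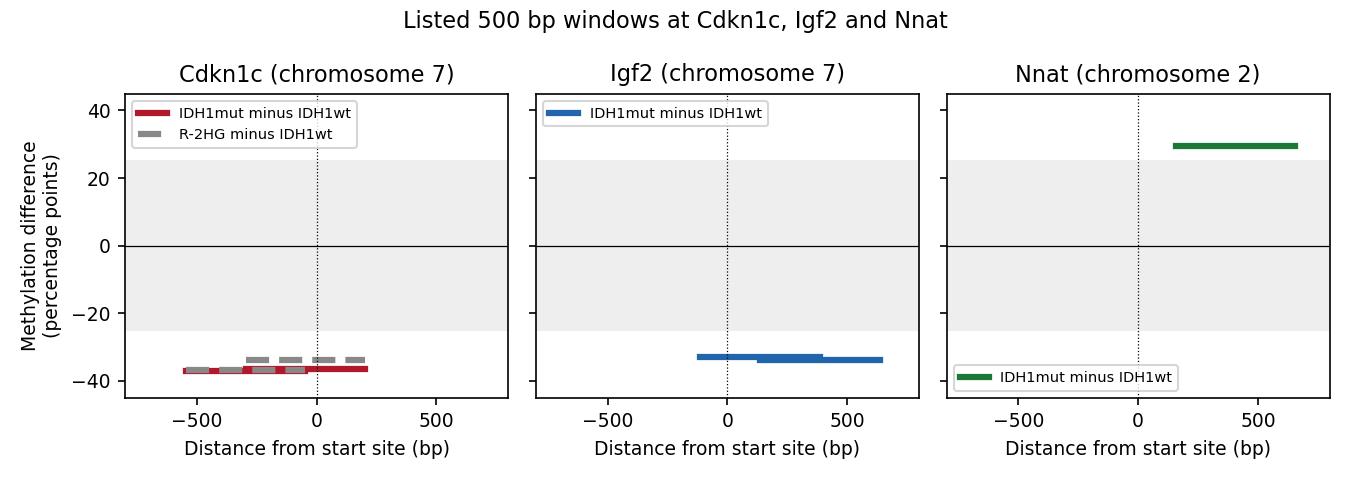
Listed windows of Cdkn1c, Igf2 and Nnat, each drawn as a horizontal bar 500 bp long at its distance from the start site in bp (horizontal axis, upstream negative) and its methylation difference in percentage points (vertical axis), coloured for IDH1mut minus IDH1wt and grey and dashed for R-2HG minus IDH1wt. The shaded band from -25 to 25 points holds no windows because of the authors' threshold; the bars of Cdkn1c and Igf2 lie between -32.9 and -37.0 and that of Nnat at 29.5.

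Igf2 and Nnat were not in the tables that involve R-2HG, which is not the same as no difference there. If the windows were covered in the R-2HG libraries and were left out only because the difference was under 25 points, then both unlisted differences bound the R-2HG value. For Igf2, R-2HG minus IDH1wt would lie between -25 and -8.68 points at the downstream window and between -25 and -7.94 points at the window over the start. For Nnat it would lie between 4.46 and 25 points. Under this assumption R-2HG would lie on the same side of IDH1wt as IDH1mut at both genes. That side is fixed by the threshold for any window listed in the IDH1mut comparison alone. It is therefore not a result about Igf2 or Nnat, and no shared direction is read from it. Whether the windows were covered in the R-2HG libraries is not given in the sources used here, and no test of IDH1mut against R-2HG could be made at these genes.

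Set among the other promoter windows, those from -2000 to 500 bp of a start site, the losses on chromosome 7 ran against the commoner direction and the Nnat gain ran with it. For IDH1mut, 4 of the 5 member windows were losses. Of the 270 promoter windows listed there, 69 were losses, 25.6%, and 74.4% were gains like that of Nnat, and of all 1493 listed windows 30.7% were losses. On chromosome 7 the share was 35.1% of 111 listed windows. For R-2HG, both Cdkn1c windows were losses, and losses made up 32.0% of 100 promoter windows and 32.0% of all 750 listed windows. The members were chosen from these lists, so nothing is read from these shares.

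In size, the Cdkn1c differences stood in the upper part of their lists and that of Nnat near the middle. In IDH1mut the larger Cdkn1c window was the 16th of 69 promoter losses, and the larger Igf2 window was the 25th. The median promoter loss was -31.5 points, and the largest was -55.6. The Nnat window was the 124th of 201 promoter gains, below their median of 30.9 points. In R-2HG the larger Cdkn1c window was the 6th of 32 promoter losses, and the smaller was the 13th.

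**Figure D3:**
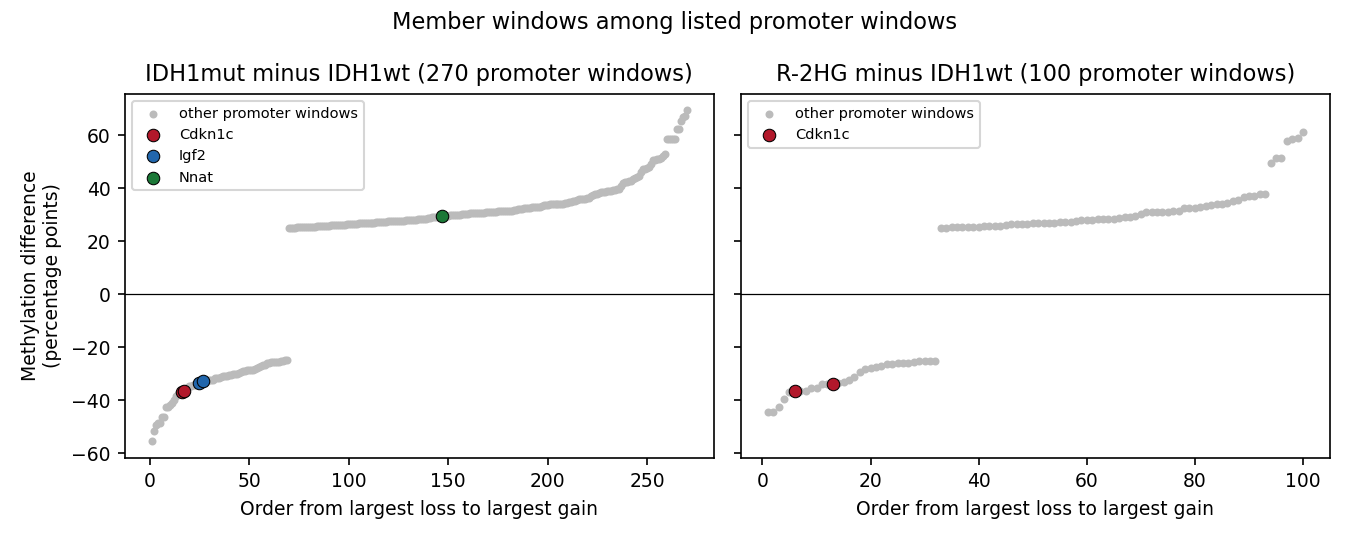
Methylation differences in percentage points (vertical axis) of all listed promoter windows, in order from the largest loss to the largest gain (horizontal axis, rank), for IDH1mut minus IDH1wt (270 windows) and R-2HG minus IDH1wt (100 windows), with grey points for other windows and coloured points for the members. Cdkn1c is at ranks 16 and 17 and Igf2 at 25 and 27 of the IDH1mut losses, and Nnat stands among the gains.

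Few other genes of the imprinted domains were listed. Of the 21 genes of the distal chromosome 7 domain that were looked up, H19, Kcnq1, Kcnq1ot1, Ascl2, Phlda2 and Slc22a18 among them, Cdkn1c and Igf2 were listed for IDH1mut and Cdkn1c for R-2HG. Neither control region's own genes, H19 and Kcnq1ot1, were named as nearest gene in any table, nor was Blcap, the host of Nnat. Whether their windows were covered is unknown. Of 79 imprinted genes in all, the IDH1mut table named 3, which are the members. Over the 27025 gene symbols of the RefSeq promoter table, 2.22% were named for IDH1mut, and 0.348% by a promoter window. These symbols do not include Cdkn1c. They hold 601 of the 881 genes named for IDH1mut, and 94 of the 157 genes named by a promoter window. The shares are thus over another set of genes than the counts here and below, and leave out many listed genes.

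The R-2HG table named 2 of the 79, Cdkn1c and Slc22a3, against 1.13% of the RefSeq symbols, which do not include Cdkn1c. Slc22a3, an organic cation transporter gene in the imprinted Igf2r cluster, gained 25.9 points over its start site and 28.0 points just upstream in the authors' deposited table (mm9, chromosome 17, 12700501 to 12701250). It was not in the IDH1mut table. On the same assumption as above, IDH1mut minus IDH1wt would lie between 0.880 and 25 points at the first window and between 3.03 and 25 points at the second. The direct comparison of R-2HG with IDH1mut named 1 of the 79, against 1.01% of the RefSeq symbols. This was Atp10a, a phospholipid flippase gene, which the authors' deposited table gives -26.1 points in a window 440322 bp before its start, far outside any promoter.

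The pathway lists looked up for Igf2 and Cdkn1c gave no listed gene besides these members. No pathway list was looked up for Nnat. Since the members were chosen for being listed, nothing is read from these counts. They stand beside 2.22% of the RefSeq symbols for IDH1mut and 1.13% for R-2HG, again without Cdkn1c. Of 23 genes of the insulin-like growth factor axis, Igf2 was the 1 gene listed for IDH1mut; its receptors Igf1r and Igf2r, the binding proteins Igfbp1 to Igfbp7 and the Igf2 mRNA-binding proteins were not, and no gene of the axis was listed in the other tables. Of 8 cyclin-dependent kinase inhibitor genes, Cdkn1c was the 1 listed for IDH1mut and for R-2HG. Its relatives Cdkn1a and Cdkn1b and the Cdkn2 genes were in no table.

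No other listed window lay within 100 kb of any member. Within 1 Mb of Igf2, the nearest listed windows were 3 near Dusp8, which encodes a phosphatase of MAP kinases, 574 kb away. They had -44.1 to -50.7 points for IDH1mut and 25.3 to 30.3 points for R-2HG minus IDH1mut in the authors' deposited tables. Subtraction puts R-2HG minus IDH1wt at -18.8 to -20.3 points there, under the listing threshold.

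On the other side of Cdkn1c, the nearest listed windows lay 777 kb away, near Shank2, a synaptic scaffold gene. They were lower in R-2HG than in IDH1mut, as the authors' deposited table gives -28.7 and -31.7 points. Around Nnat, the nearest was a window near Src, the tyrosine kinase gene, 142 kb away, which gained 27.8 points in R-2HG in the authors' deposited table (q of 1.4e-09). Windows near 9830001H06Rik, 494 kb away, had -33.8 and -34.7 points for IDH1mut in the authors' deposited table. Arhgap40, 979 kb away, had losses in both groups, -25.2 and -26.1 points for IDH1mut and -39.6 and -40.1 points for R-2HG in the authors' deposited tables. The remaining neighbour was 4930405A21Rik, with gains of up to 25.1 points for R-2HG minus IDH1mut in the authors' deposited table. Within 1 Mb of Nnat, the other windows listed for IDH1mut minus IDH1wt were losses, near 9830001H06Rik and Arhgap40 only. Over chromosome 2, 28 of the 98 windows listed for IDH1mut were losses. The comparisons that involve R-2HG held gains near Src and 4930405A21Rik and losses near Arhgap40. Nothing is read from the directions at so few places. Whether windows nearer to Nnat were covered is unknown.

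**Figure D4:**
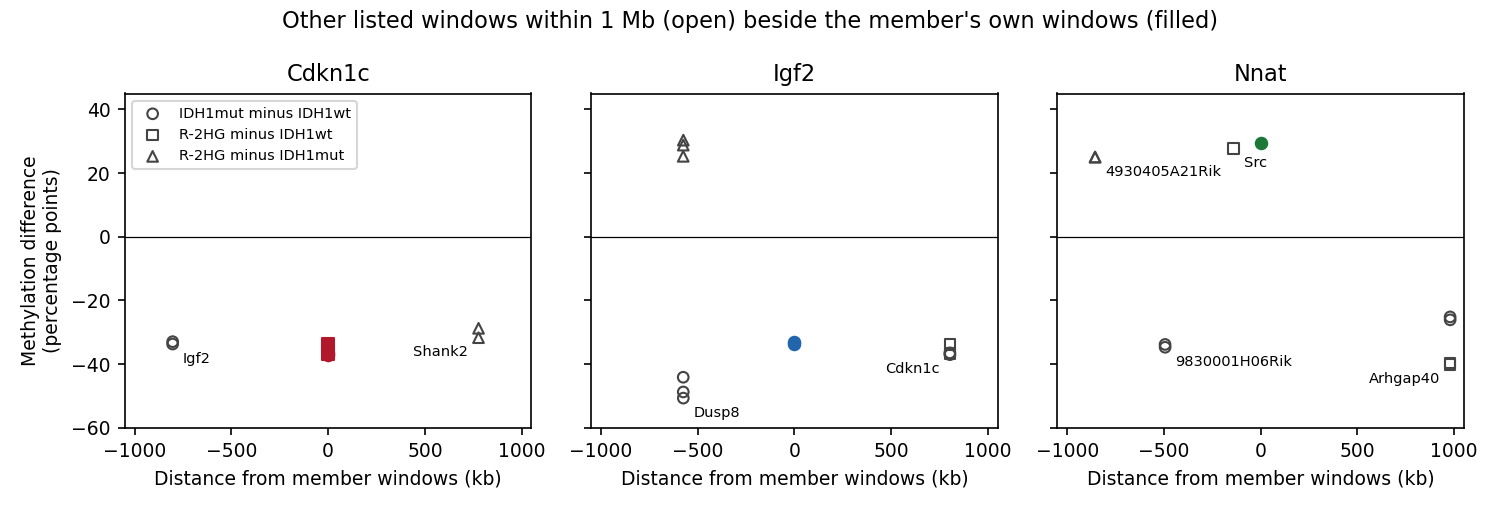
Methylation difference in percentage points (vertical axis) of other listed windows within 1 Mb (open symbols, named by nearest gene) at their distance in kb from the windows of Cdkn1c, Igf2 and Nnat (horizontal axis), with the member's own windows filled at 0; circles are IDH1mut minus IDH1wt, squares R-2HG minus IDH1wt and triangles R-2HG minus IDH1mut. The nearest other window is the one near Src, 142 kb from Nnat.

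Among genes with promoter windows in the same tables, some outside the imprinted domains had values close to those of the members. Besides Cdkn1c, 27 genes had promoter windows listed for both IDH1mut and R-2HG against IDH1wt and none in the direct comparison. By their medians, 10 of them had losses in both and 17 had gains in both. All 27 thus had the same direction in both groups, so a shared direction is not particular to Cdkn1c. As at Cdkn1c, it follows from the threshold where both comparisons list a window and the direct one does not. It is therefore not a result about these genes. Closest to the Cdkn1c medians of -36.7 and -35.2 points was Cox7c, a subunit gene of cytochrome c oxidase, with median differences of -38.3 and -35.2 points. Next were Egf, the epidermal growth factor gene, with -34.5 and -34.0 points, and Dcp1b, a gene of mRNA decapping, with -41.0 and -33.5 points. The homeobox gene Hoxc6 and Necab1 followed at a distance of 9.79 and 11.0 points, by the square root of the summed squared differences. Likeness here is over 2 comparisons that share their controls.

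For Igf2 and Nnat the likeness rests on 1 comparison, and 89 other genes had promoter windows in the IDH1mut table alone. By their medians, 23 of those beside Igf2 had losses and 66 had gains. Beside Nnat these numbers were 24 and 65. Closest to the Igf2 median of -33.3 points were Nrbp2, Chn1, Gm6406, Elf5 and 4932443I19Rik, with -31.5 to -34.7 points. Closest to Nnat were Nlgn2, Snord43, Trim47, Zfp112 and Ackr3, with 29.1 to 29.6 points. In bulk DNA, a change on 1 parental copy in all cells and a change on both copies in some of the cells cannot be told apart, and the tables give no reads by parental copy. No expression values were analysed here.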

How the data were processed

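RRBS libraries of 6 samples, 2 in each of 3 groups taken from the sample titles, were made and sequenced by the authors. The submitters' processing notes name Trim Galore, BSMAP, methylKit 0.9.1 and build mm9. How these were set, which sites were filtered and which test was run is not given in the sources used. The values used are the authors' 3 deposited tables, which hold, per the file headers, a p-value, a q-value and a methylation difference per window. The authors' difference is a score with a sign, in percentage points of methylation between 2 groups. All windows are 500 bp long and start 250 bp apart, and the largest deposited q is 0.00995. Read depth and coverage are unknown, so no interval is given. Columns of values per sample that were left unused numbered 0.

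Windows repeated for equally near transcripts were counted once. The authors' nearest start site was used at any distance, and exon and intron are not given, since no mm9 annotation was used. The sign order was chosen so that the 3 differences add up. The code for it and for joining windows within 1000 bp was run on simulated data. It recovered 4 of 4 sign orders and 300 of 300 clusters. The simulated differences held no measurement error, and the clusters lay further apart than the joining distance. The run thus checks the code alone. In methylKit the control is subtracted, and the group named second was taken as treated; 2 of the 3 tables then stand as deposited.

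No test between groups was made, since the members were chosen from these values. The genes and lists were chosen with earlier results of these data known. Named are the members, list genes with a listed window, genes of listed windows within 1 Mb, and for each member the 5 genes with the most similar median promoter differences in the same tables. Alternatives varied the counting of rows, the thresholds, the promoter limits, the distance limits and the sign reading. Python 3.11.15, pandas 2.3.3 and numpy 2.4.6 were used.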

Additional observations from a re-analysis of the deposited data

How the results depend on the processing

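No paired analysis was possible because the tables hold group differences and no value per library, and for the same reason no run without 1 library could be made. The counts of member windows, 5 for IDH1mut, 2 for R-2HG and 0 in the direct comparison, stayed within 1.5 times when every row was counted, with q under 0.001 and with promoters from -1000 to 1000 or -500 to 500 bp. With a difference of 30 points or more the IDH1mut count was 4, and Nnat then had no value. With all directions turned, the median promoter differences became 36.7 for Cdkn1c, 33.3 for Igf2 and -29.5 points for Nnat in IDH1mut, and 35.2 points for Cdkn1c in R-2HG. Taking the R-2HG value of Cdkn1c from the overlapping window gave remaining differences of -0.235 and 3.21 points in place of 2.66 and 0.316. In IDH1mut the largest member window exceeded 78.8% of all listed windows for Cdkn1c, 67.9% for Igf2 and 46.5% for Nnat; among promoter windows these shares were 75.9%, 64.4% and 37.0%, and with 1 window per cluster 79.8%, 69.0% and 47.1%. For Cdkn1c in R-2HG the share was 81.7%, and 82.0% and 81.4% under these settings. Of the imprinted genes, the counts for IDH1mut and R-2HG were the same for promoter windows and within 10 kb, and that of the direct comparison fell from 1 to 0 under both. Within 100 kb in place of 1 Mb the listed windows of other genes fell from 2 to 0 for Cdkn1c, from 6 to 0 for Igf2 and from 9 to 0 for Nnat, as fewer windows can lie in the shorter stretch. The unknown depth leaves the precision of every difference unknown.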
